A study of Zea mays with 10 samples.

Results

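The maize gene ct2 (compact plant2, GeneID:100284718) encodes the alpha subunit of the heterotrimeric G protein. It was selected by its gene identifier, with earlier results of these data known, and is 1 of 48174 genes in the deposited table. The gene table lists 4 RefSeq transcripts and 4 proteins for it, and the deposited values are per gene, so they do not separate these transcripts.

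A heterotrimeric G protein has an alpha subunit, which binds and hydrolyses GTP, and a dimer of a beta and a gamma subunit, and it passes signals from receptors at the plasma membrane. In maize the alpha subunit CT2 acts with the receptor-like protein FEA2 in the CLAVATA pathway, which limits the stem cell population of the shoot meristem. Plants that lack CT2 are short and have enlarged meristems and thickened ears.

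RNA was measured in the root tip, the terminal 1 mm of the primary and seminal roots of 3-day-old B73 seedlings, B73 being the inbred line of the maize reference genome. All seedlings received water for 1 h and then 175 uM 5-ethynyl uridine (EU), a uridine analogue that is built into RNA as it is made, for 1 h. The EU nascent group has 5 libraries of nuclear RNA in which EU-bearing RNA was biotinylated and captured on streptavidin. The nuclear group has 5 libraries of total nuclear RNA from the same kind of labelled tissue without the pulldown, so both groups carry EU. The comparison therefore asks which RNAs were more or less abundant among recently made transcripts than in the nucleus as a whole. Roots are not the tissue in which the meristem role of ct2 was described.

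The libraries held between 2391209 and 5770915 counts in the EU nascent group and between 1323450 and 20397606 in the nuclear group. Of 21048 genes tested, 8602 differed between the groups (40.9%), 4166 higher in EU nascent RNA (19.8%) and 4436 lower (21.1%), by edgeR's quasi-likelihood test at an adjusted p of 0.05. A list of markers of root tips and dividing cells held 16 genes. Apart from SCR and wox5B they are cyclin, PCNA and MCM genes, which do not set root tips apart from other dividing tissue. Of these 16 genes, 14 were tested, 3 of them higher and 5 lower in EU nascent RNA. Their summed level was 582 to 722 CPM (counts scaled to a common library total) in EU nascent libraries and 584 to 709 CPM in nuclear libraries. Outside that list, 12 genes of a leaf marker list held 7 counts over the EU nascent libraries and 20 over the nuclear libraries, with 5 of the 12 at 0. The remaining leaf list genes, pdk1 and me3, were both higher in EU nascent RNA (log2 fold changes of 0.37 and 0.31). With them the leaf list summed to 652 to 705 CPM in EU nascent and 456 to 509 CPM in nuclear libraries, and its part in the results below was not tested. In these bulk samples, fewer cells of a type and less RNA per cell cannot be told apart.

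ct2 RNA was higher in EU nascent than in nuclear RNA, by a modest amount. The libraries of the EU nascent group held 94, 313, 145, 280 and 207 ct2 counts in replicates 1 to 5, against 46, 172, 51, 784 and 152 in the nuclear group. All 10 values were whole numbers. Scaled by the trimmed mean of M values (TMM), the level was 38.2, 51.5, 56.1, 46.4 and 48.8 CPM in EU nascent replicates 1 to 5. In nuclear replicates 1 to 5 it was 37.4, 35.2, 31.7, 41.0 and 37.9 CPM. Replicates 2 to 5 of the EU nascent group lay above every nuclear library, and replicate 1 lay among the nuclear libraries, below nuclear replicate 4, so the groups overlapped.

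**Figure D1:**
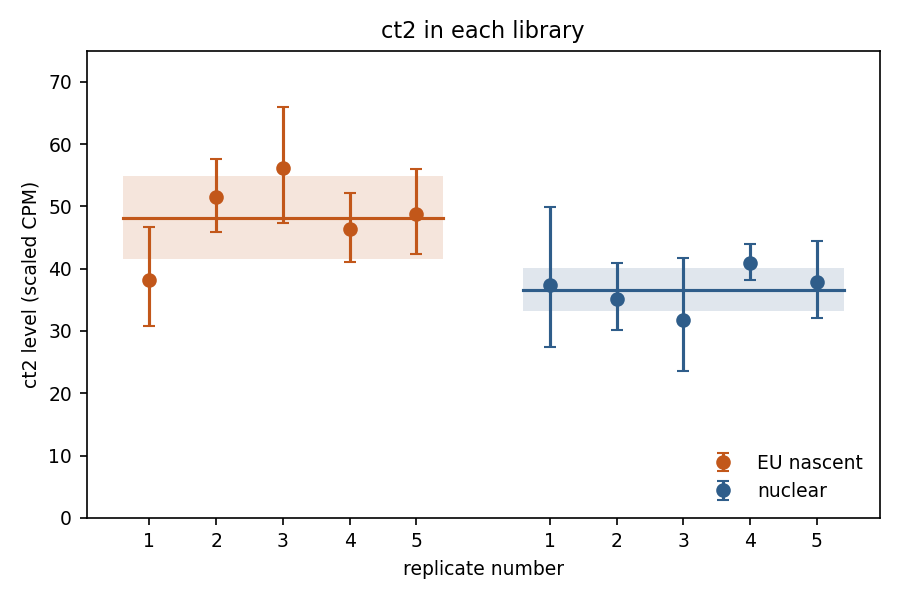
Level of ct2 in scaled CPM (vertical axis) in each library by replicate number, EU nascent libraries left and nuclear libraries right. Points carry 95% Clopper-Pearson intervals, which cover counting error only, lines are group means and bands are 1 SD. EU nascent replicate 1, at 38.2 CPM, is the only EU nascent library within the nuclear range of 31.7 to 41.0 CPM.

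The mean was 48.2 ± 6.67 CPM in EU nascent libraries and 36.6 ± 3.44 CPM in nuclear libraries (SD, n = 5 each). The counting error of a single library was not small beside the difference. The Clopper-Pearson interval of the lowest EU nascent library ran from 30.8 to 46.7 CPM, and that of the highest ran from 47.3 to 66.0 CPM. In the nuclear group the library with fewest counts had an interval of 27.4 to 49.9 CPM and the deepest one an interval of 38.2 to 43.9 CPM. Pooled over libraries, ct2 held 1039 of 20263320 counts (51.3 CPM of the totals) in EU nascent RNA and 1205 of 32922476 (36.6 CPM of the totals) in nuclear RNA. The pooled values are not TMM scaled. Nuclear replicate 4 alone held 784 of the 1205 ct2 counts and 20397606 of the 32922476 counts, so it dominates the nuclear value.

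In edgeR's fit over all genes the log2 fold change of ct2 was 0.37 ± 0.10 (SE), with a 95% interval of 0.15 to 0.59 and an adjusted p of 0.00796. As a ratio this is 1.29, with an interval of 1.11 to 1.5. A two-sided exact permutation test on the log2 levels of the 10 libraries gave a mean difference of 0.39 and p = 0.0159, where the smallest possible p is 0.00794. The call held under each of the 17 alternatives run, with log2 fold changes of 0.33 to 0.54. The highest adjusted p among them was 0.0255, when EU nascent replicate 2 was left out of the edgeR fit.

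The replicate numbers pair an EU nascent with a nuclear library, and ct2 was higher in the EU nascent library of each of the 5 pairs. The ratio was 1.02, 1.46, 1.77, 1.13 and 1.29 in pairs 1 to 5. In pair 1 the libraries were nearly equal, and in pair 3 the difference was largest. An exact sign-flip test over the pairs gave p = 0.0625, the smallest it can give with 5 pairs. With the replicate number as a block, edgeR gave a log2 fold change of 0.37 and an adjusted p of 0.00222.

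ct2 varied between libraries about as much as other genes of its level. Its coefficient of variation was 13.8% among EU nascent and 9.40% among nuclear libraries, where counting alone would give 7.63% and 10.5%. Among 5252 tested genes with a mean level within 1.5-fold of that of ct2, the median coefficient of variation was 11.5% in EU nascent libraries and 11.7% in nuclear libraries. The value of ct2 exceeded 67.0% of these genes in EU nascent libraries and 30.8% of them in nuclear libraries. EU nascent replicate 1, the lowest of its group for ct2, was also the one with the fewest counts (2391209), but replicate 3, the highest for ct2, had nearly as few (2417533). The part of depth in these values was not tested.

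Among all genes tested, the log2 fold change of ct2 stood at percentile 80.2. The median over all genes was 0.02, with quartiles of -0.28 and 0.30. Of the 4166 genes called higher, 3285 (78.9%) had a larger change than ct2, so its rise was among the smaller ones called. With library totals in place of TMM factors, the median of all genes moved to 0.19 and ct2 to 0.54, which left ct2 above the median by a similar distance. Under that scaling 72.8% of the calls were higher in EU nascent RNA, against 48.4% with TMM factors.

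**Figure D2:**
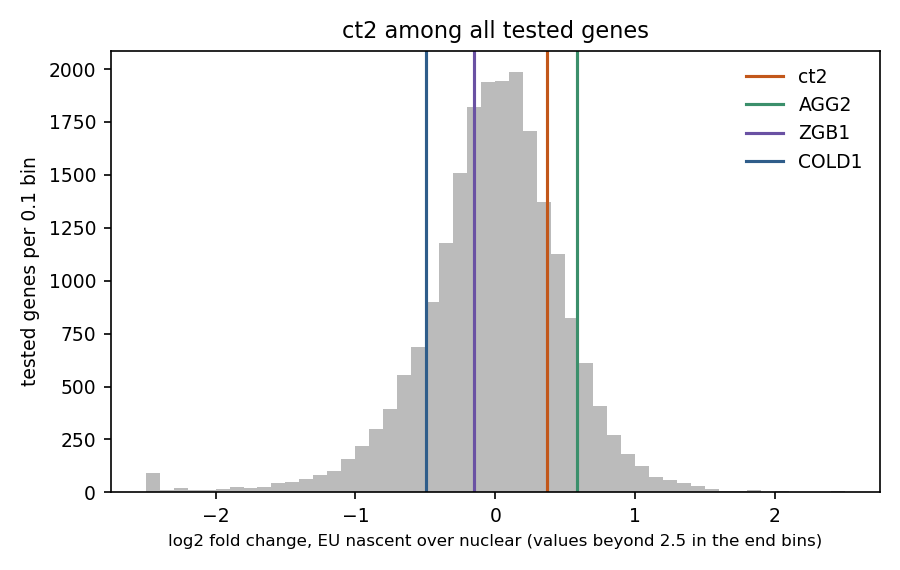
Distribution of the log2 fold change, EU nascent over nuclear (horizontal axis), over 21048 tested genes, as genes per bin of 0.1 (vertical axis). Lines mark ct2 at 0.37, AGG2 at 0.59, ZGB1 at -0.15 and COLD1 at -0.49, and ct2 and AGG2 lie to the right of the upper quartile of 0.30.

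Genes on the G protein list did not all change as ct2 did. Of 5 listed genes, 4 were tested, ct2 included: 2 were higher in EU nascent RNA (ct2 and AGG2), 1 was lower and 1 did not pass. The lower one, COLD1, was added to the list after the gene table was seen. It stands there as a partner of the alpha subunit in rice, not as a subunit. Their median log2 fold change was 0.11, beside 0.02 over all genes. With a background of 40.9% of genes called, 3 of 4 is too few genes to set apart. The extra-large G proteins, the RGS regulators and further gamma subunits had no match by name.

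ZGB1 (GeneID 542310, listed with the synonyms GB1 and ZGB1) encodes the beta subunit, with which the alpha subunit forms the inactive trimer. Its level was 57.2, 52.2, 57.3, 50.0 and 52.1 CPM in EU nascent replicates 1 to 5, against 65.1, 59.0, 60.9, 58.8 and 56.1 CPM in nuclear replicates 1 to 5. The groups overlapped, with means of 53.8 ± 3.30 CPM in EU nascent and 60.0 ± 3.32 CPM in nuclear libraries. The log2 fold change was -0.15 ± 0.08, with a 95% interval of -0.32 to 0.01 and an edgeR adjusted p of 0.125, and it was 0.02 with library totals. A further gene with the synonym GB1 (GeneID 100217119) held 0 counts in all 10 libraries, which allows at most 0.148 CPM over the EU nascent group and 0.0911 CPM over the nuclear group.

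AGG2 (GeneID 100191839) carries a name that in Arabidopsis belongs to a gamma subunit, and here it is a synonym in the gene table, which does not give the product. Its level was 33.3, 37.0, 33.3, 35.1 and 36.6 CPM in EU nascent replicates 1 to 5, against 24.4, 25.4, 24.2, 21.6 and 23.5 CPM in nuclear replicates 1 to 5. Every EU nascent library lay above every nuclear library. The log2 fold change was 0.59 ± 0.10 with an edgeR adjusted p of 0.000109.

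COLD1 (GeneID 100272676) was lower in EU nascent RNA. In rice, COLD1 is a membrane protein that interacts with the G protein alpha subunit in chilling tolerance. Its level was 98.2, 95.8, 94.0, 97.5 and 91.5 CPM in EU nascent replicates 1 to 5, against 146, 135, 128, 130 and 135 CPM in nuclear replicates 1 to 5. The groups did not overlap, and the log2 fold change was -0.49 ± 0.07 with an edgeR adjusted p of 2.13e-05. It was -0.32 with library totals.

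The ratio of ct2 counts to those of another gene in the same library does not depend on how libraries are scaled. These ratios are compared only between the groups, since they are not corrected for gene length, and 3 were computed. ct2 counts per ZGB1 count were 0.667, 0.987, 0.980, 0.927 and 0.937 in EU nascent replicates 1 to 5, against 0.575, 0.597, 0.520, 0.697 and 0.676 in nuclear replicates 1 to 5. Replicates 2 to 5 of the EU nascent group again stood above every nuclear library, and replicate 1 fell below nuclear replicates 4 and 5. The mean log2 difference was 0.55, with an interval of 0.21 to 0.82, p = 0.0238 by an exact permutation test and 0.0357 after Benjamini-Hochberg adjustment over the 3 ratios. On leaving out 1 library the difference was 0.49 to 0.65 (exact permutation p of 0.00794 to 0.0317), and it was largest without EU nascent replicate 1.

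ct2 counts per COLD1 count were 0.388, 0.538, 0.597, 0.475 and 0.534 in EU nascent replicates 1 to 5, against 0.257, 0.261, 0.248, 0.315 and 0.281 in nuclear replicates 1 to 5. No EU nascent library fell within the nuclear range. The mean log2 difference was 0.89, with an interval of 0.60 to 1.15 and an adjusted exact permutation p of 0.0238, the raw p of 0.00794 being the smallest possible. ct2 counts per AGG2 count were 1.15, 1.39, 1.69, 1.32 and 1.34 in EU nascent replicates 1 to 5, against 1.53, 1.39, 1.31, 1.89 and 1.62 in nuclear replicates 1 to 5. That difference was -0.17, with an interval of -0.50 to 0.14 and an adjusted exact permutation p of 0.254, so neither direction was set apart from the spread between libraries.

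**Figure D3:**
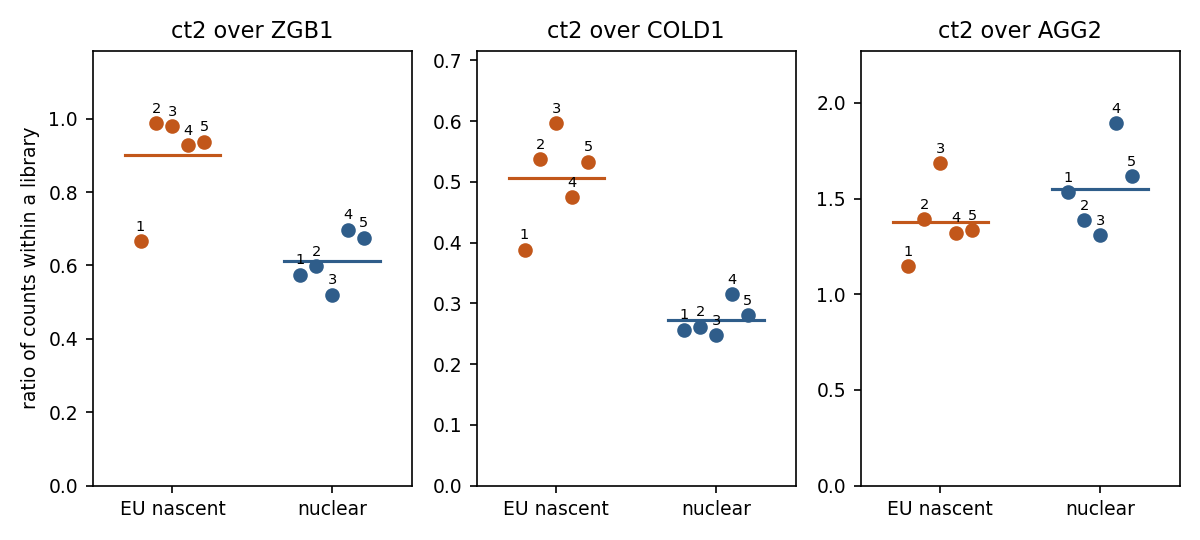
Ratio of ct2 counts to ZGB1, COLD1 and AGG2 counts within a library (vertical axes, each from 0), EU nascent left and nuclear right in each panel. Points are libraries with their replicate number and lines are group means, which for COLD1 are 0.506 in EU nascent and 0.272 in nuclear libraries, with no overlap.

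Most genes on a list of the CLAVATA and WUSCHEL type, matched by name, were scarce in these root tips. The list is wider than the pathway in which CT2 acts in the shoot, since it takes in WUSCHEL-related homeobox (wox) genes. Of 17 matched genes, 5 were tested, 1 was higher in EU nascent RNA, 0 were lower and 4 did not pass, beside 40.9% of all tested genes called, 19.8% higher and 21.1% lower. Their median log2 fold change was 0.25, beside 0.02 over all genes. fea2 encodes the leucine-rich repeat receptor-like protein with which CT2 acts. The gene averaged 37.8 ± 2.97 CPM in EU nascent and 29.9 ± 7.24 CPM in nuclear libraries (log2 fold change 0.25 ± 0.12, edgeR adjusted p 0.114). With the replicate block fea2 was at 0.26 and passed (edgeR adjusted p 0.0464), and with library totals it was at 0.42 and passed as well. Its lowest library was nuclear replicate 1, at 17.9 CPM, and without that library fea2 was at 0.18 (edgeR adjusted p 0.174). With replicates 2, 4 and 5 it was at 0.14 (edgeR adjusted p 0.324). fea3, a related receptor, averaged 7.72 ± 1.80 CPM in EU nascent and 7.39 ± 1.28 CPM in nuclear libraries (0.03 ± 0.19, edgeR adjusted p 0.906). FEA4, a bZIP transcription factor, had a log2 fold change of 0.25 ± 0.25 (edgeR adjusted p 0.442).

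The gene called higher was wox13A, a WUSCHEL-related homeobox gene, at 15.2 ± 1.14 CPM in EU nascent and 11.5 ± 1.25 CPM in nuclear libraries (0.34 ± 0.13, edgeR adjusted p 0.0473). That call was lost on leaving out any 1 library except EU nascent replicate 1, with adjusted p of 0.0506 to 0.0946. Its relative wox13B, at 0.36 ± 0.25, did not pass (edgeR adjusted p 0.267), nor did it on leaving out any 1 library. It passed at 0.67 with replicates 2, 4 and 5 (edgeR adjusted p 0.0116), a fit chosen after seeing the data. TD1, a CLAVATA1-type receptor kinase, held 11 counts over the EU nascent and 14 over the nuclear libraries and was not tested. wus1 had 0 counts and wus2 had 1 count over all libraries, and 5 of the 17 genes were at 0 throughout.

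Of 31 shoot meristem genes, 15 were tested: 1 was higher, 3 were lower and 11 did not pass, so 4 of 15 were called, beside 40.9% of all tested genes. Their median log2 fold change was -0.12. RELK2, a co-repressor of the TOPLESS type, was the higher one (0.26 ± 0.09, edgeR adjusted p 0.0271). This call was lost without EU nascent replicate 2 or 4 or nuclear replicate 1 or 3, with adjusted p of 0.0565 to 0.0735. The lower ones were ids1, an AP2-type factor of spikelet meristems, at -0.25 ± 0.09, lg4, a knotted1-type homeobox gene, at -0.24 ± 0.09, and rel2, a co-repressor, at -0.22. ids1 lost its call without EU nascent replicate 2, 3 or 4 or nuclear replicate 1, 4 or 5, with adjusted p of 0.0537 to 0.112. lg4 lost its call without EU nascent replicate 2, 3, 4 or 5 or nuclear replicate 1, 2, 3 or 5, with adjusted p of 0.0515 to 0.139. With library totals ids1 was at -0.08 and lg4 at -0.07, and 0 of the 15 genes were called lower and 2 higher. kn1, the founding member of the family, held 4 counts over the EU nascent and 8 over the nuclear libraries.

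Of 3 genes on a list named for the root meristem, 2 were tested and 1, a root hair gene, was called, beside 40.9% of all tested genes. rth3, a COBRA-like gene of root hair elongation, rose to 45.5 ± 4.05 CPM in EU nascent libraries, against 36.6 ± 2.94 CPM in nuclear libraries (0.34 ± 0.09, edgeR adjusted p 0.00611). SCR, the scarecrow gene of root radial patterning, was at 23.1 ± 6.04 CPM in EU nascent and 27.4 ± 2.47 CPM in nuclear libraries and did not pass (-0.27 ± 0.14, edgeR adjusted p 0.131). Without EU nascent replicate 1 it was at -0.36 and passed (edgeR adjusted p 0.027), as it did at -0.31 with replicates 2, 4 and 5 (edgeR adjusted p 0.046). With library totals it was at -0.10 and did not pass (edgeR adjusted p 0.565).

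Small GTPases bind GTP as CT2 does but act as single proteins. Of 10 matched, 9 were tested: 2 were higher, 1 was lower and 6 did not pass, so 3 of 9 were called, near the 40.9% of all tested genes. Their median log2 fold change was 0.11. RAB2B, of a family in vesicle traffic, averaged 27.0 ± 2.10 CPM in EU nascent and 19.8 ± 3.65 CPM in nuclear libraries (0.44 ± 0.12, edgeR adjusted p 0.00852). RAB2A was higher as well (0.42 ± 0.15, edgeR adjusted p 0.032), and its call was lost without EU nascent replicate 2, 4 or 5 or nuclear replicate 4 or 5, with adjusted p of 0.05004 to 0.168.

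Of 7 genes whose mutants, like those of ct2, change plant height, 4 were tested, 0 were higher, 1 was lower and 3 did not pass, beside 19.8% of all tested genes called higher and 21.1% lower. D8, a DELLA repressor of gibberellin response, averaged 62.9 ± 14.8 CPM in EU nascent and 86.3 ± 7.89 CPM in nuclear libraries (-0.47 ± 0.12, edgeR adjusted p 0.00482). Its homologue d9 was at -0.01 (0.16 with library totals), na1 of brassinosteroid synthesis at 0.30 and br2 of auxin transport at 0.06, and none of these 3 passed (edgeR adjusted p 0.958, 0.193 and 0.716). With library totals na1 passed, at 0.47.

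**Figure D4:**
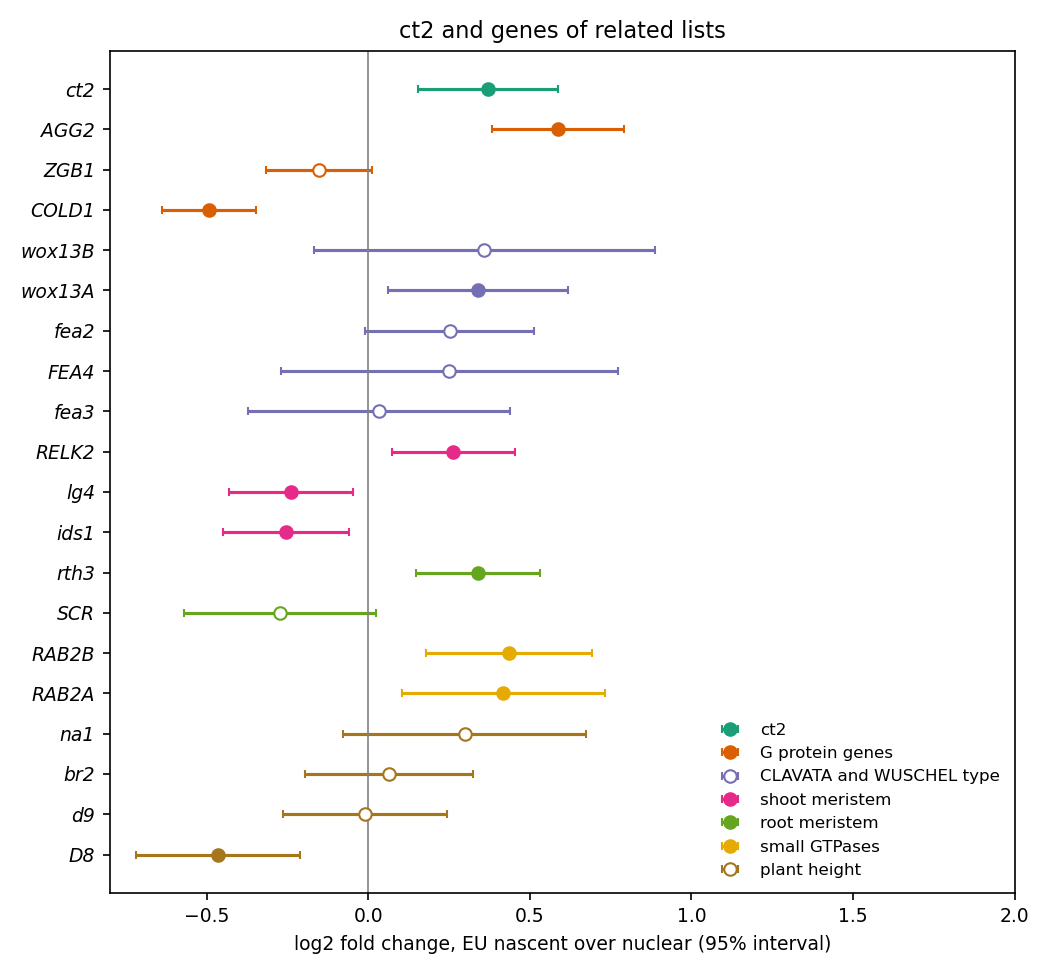
Log2 fold change, EU nascent over nuclear (horizontal axis), with 95% intervals for ct2 and named genes of related lists (vertical axis), coloured by list. Filled points passed an adjusted p of 0.05 in edgeR and open points did not. On the G protein list, COLD1, at -0.49, and AGG2, at 0.59, lie on opposite sides of 0.

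Of the 4 genes nearest to ct2 in the reference annotation, 3 held too few counts to be tested. No annotated gene overlaps ct2. The second gene on one side, LOC100383364, averaged 59.1 ± 7.87 CPM in EU nascent and 70.0 ± 5.56 CPM in nuclear libraries and did not pass (-0.22 ± 0.09, edgeR adjusted p 0.0628). It was called lower with the replicate block (adjusted p 0.0197 in edgeR) and without EU nascent replicate 1 (adjusted p 0.0382 in edgeR). With library totals it was at -0.05 (adjusted p 0.666 in edgeR), and without EU nascent replicate 3 at -0.15 (adjusted p 0.174 in edgeR). LOC100284403, LOC109942747 and LOC100286062, the other 3 of the 4 nearest genes, held 11, 3 and 44.5 counts over all libraries and were not tested.

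The genes most like ct2 across libraries were sought among 123 genes with a name other than a locus number and a mean of at least 5 CPM. The measure was the Pearson correlation of log2 CPM over the 10 libraries, which mixes the difference between groups with the spread within them. The highest values were 0.90 for mbd117, 0.89 for mbd123, 0.89 for mbd108, 0.88 for CNR6 and 0.82 for sbp12. Spearman's rho was 0.94, 0.88, 0.84, 0.85 and 0.79 for these genes in the same order. With the group means taken out, the correlations were 0.75, 0.72, 0.92, 0.71 and 0.42. The mbd genes encode proteins with a methyl-CpG-binding domain, CNR6 a cell number regulator and sbp12 an SBP-type transcription factor.

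Among these 5 genes mbd108 came after mbd117 and mbd123 by Pearson's correlation and was highest once group means were removed. All 5 genes, like ct2, were lowest within the EU nascent group in replicate 1. They were picked for their correlation with ct2 over these same libraries, so a shared low value follows in part from that choice. The log2 fold change of mbd108, 0.27, did not pass (edgeR adjusted p 0.114), but passed at 0.29 with the replicate block (adjusted p 0.0377) and at 0.37 without EU nascent replicate 1 (adjusted p 0.00999). CNR6 (0.64), sbp12 (0.98) and mbd123 (1.05) rose in EU nascent RNA, and their difference from ct2 was not tested. mbd117 was at 0.28 (edgeR adjusted p 0.0279), and its call was lost without EU nascent replicate 2 or 4 or nuclear replicate 2, 3 or 5, with adjusted p of 0.0521 to 0.0869. The family did not follow ct2 as a whole: 10 mbd genes were ranked, with a median correlation of 0.54 and a lowest value of -0.59. The median over the 123 genes was 0.01. Among 18885 genes with a mean of at least 5 CPM, named or not, 94 had a higher correlation than mbd117. All these points share library depth and scaling, and the values are descriptions.

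**Figure D5:**
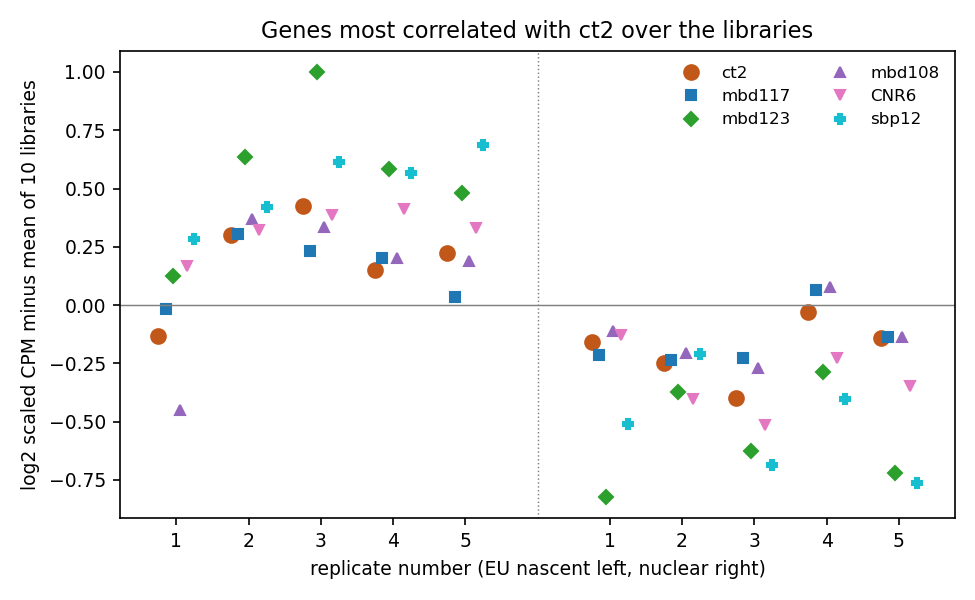
Log2 scaled CPM of ct2 and of the 5 named genes most correlated with it, minus each gene's mean over 10 libraries (vertical axis), by replicate number with EU nascent left and nuclear right. Each symbol is a gene in a library, and all 6 genes have their lowest EU nascent value in replicate 1. The 5 genes were picked for their correlation with ct2 over these same libraries.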

How the data were processed

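Per the labels' protocols, RNA was taken from nuclei of EU-labelled root tips, cleared of DNA and of ribosomal RNA, and sequenced from strand-specific libraries whose fragments carry UMIs. Groups and replicate numbers come from the labels, which call the replicates biological, with nothing further on their origin, so p-values measure the spread between these libraries. The submitters' processing notes name STAR 2.7.10b, HTSeq, UMI-tools, Trimmomatic 0.36 and 0.39, deepTools and SAMtools without saying which step used which. Genome build, annotation and strand setting of the counting are not given in the sources used here, so no coordinates are given, and genes that overlap or lie antisense to another carry uncertain values.

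What the authors deposited is taken to be expected counts per gene without normalization, from the values themselves: 96.3% were whole within 1e-06, and the rest look like reads shared between genes. They were rounded before testing. ids1, D8 and several genes of the lists had a fractional count in a library, and ct2 had none. Comparing the files of single libraries with the table of all libraries gave 0 differences. Of 48174 identifiers, 48127 (99.9%) were found in RefSeq's table for Zm-B73-REFERENCE-NAM-5.0, from which only names and the order of neighbours were taken.

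Fold changes are EU nascent over nuclear, from the quasi-likelihood test of edgeR 4.0.16 in R 4.3.3 over all genes that passed filterByExpr by group, with TMM scaling and Benjamini-Hochberg adjustment at 0.05. The standard error of a log2 fold change was obtained by dividing its size by the root of the F statistic. Log2 CPM for correlations used a prior count of 2. Ratios were taken on the counts as they are, with 0.5 added to each count as an alternative. Single values of the 10 libraries were tested by exact permutation. Clopper-Pearson 95% intervals and the limit for a count of 0 (3 counts over a group) cover counting error only. Further software was DESeq2 1.42.0, limma 3.58.1, scipy 1.17.1, pandas 2.3.3, numpy 2.4.6 and Python 3.11.15. The fit was tested on simulated data.

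Same-numbered libraries deviated together (correlations of 0.158 to 0.217 over the 5 pairs, with 0.113 the highest for other pairs), so the numbers were taken to pair the samples.

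The gene and the lists were chosen with earlier results of these data known. Lists were matched on symbols and synonyms. After the gene table was seen, matches to unrelated genes were dropped and COLD1 and SCR were added. Named genes are all tested G protein genes, in each other list up to 2 called genes with the highest and 2 with the lowest change at a mean of at least 5 CPM, the 2 neighbours on each side, and the 5 named genes most correlated with ct2. Beyond this rule, all tested members of the CLAVATA, root meristem and plant height lists, rel2, TD1, kn1, wus1, wus2, pdk1 and me3 are named. The small GTPase called lower is not reported here by name. Alternatives were other scalings (size factors, library totals), no filter, DESeq2, limma voom, the replicate block and leaving out each library. A fit to replicates 2, 4 and 5 was chosen after seeing the data, since these are the pairs with the deepest libraries.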

Additional observations from a re-analysis of the deposited data

Results flagged for a closer look

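Of 60 groups of 5 libraries checked, 3 had a library whose gap to its nearest neighbour exceeded 0.71 of the group's range, and chance gives about 1 in 20, or 3 of these 60. That number is rough, because the groups are not independent. The ratios share ct2, and some genes were picked for their correlation with it over these libraries. The ratio of ct2 to ZGB1 counts was 0.667 in EU nascent replicate 1, against a median of 0.937 in its group. mbd108 was at 18.7 CPM in EU nascent replicate 1, against a median of 29.3 CPM. ids1 was at 101.69 CPM in nuclear replicate 1, against a median of 80.8 CPM in that group.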

How the results depend on the processing

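The call of ct2 as higher in EU nascent RNA and its direction held under each of the 17 alternatives to the edgeR fit. Its log2 fold change was 0.33 to 0.44 on leaving out 1 library, 0.34 with replicates 2, 4 and 5 and 0.54 with library totals. The permutation difference was 0.33 to 0.47 on leaving out 1 library. The ratio difference was then 0.49 to 0.65 to ZGB1, 0.82 to 0.98 to COLD1 and -0.25 to -0.09 to AGG2. With the replicate block as a sign-flip test over 5 pairs, the differences of 0.39 (ct2), 0.55 (ratio to ZGB1) and 0.89 (ratio to COLD1) had p = 0.0625 in the exact test, the smallest it can give. The block in edgeR called 10446 genes, against 8602 without it, and leaving out 1 library gave 7304 to 9269. Calls in the CLAVATA and WUSCHEL list, 1 in the report, were 2 with library totals, 2 with the block, 0 without the filter, 0 with DESeq2 (adjusted p over all genes), 0 with voom and 0 to 1 on leaving out 1 library. In the shoot meristem list, 4 in the report, they were 2 with totals, 5 with the block, 3 with DESeq2 and 1 to 5 on leaving out 1 library. In the plant height list, 1 in the report, they were 2 with totals. In the root meristem list, 1 in the report, they were 2 with replicates 2, 4 and 5 and 1 to 2 on leaving out 1 library. With library totals ZGB1 moved to 0.019 and d9 to 0.16. With replicates 2, 4 and 5 br2 moved to -0.057. On leaving out 1 library br2 ranged from -0.047 to 0.15, d9 from -0.086 to 0.079 and fea3 from -0.011 to 0.14. The cause of these changes was not tested. Of 442 values over 26 named genes and the alternatives, 369 kept their direction and side of the threshold. Among these 26 genes the block gained the calls of fea2, mbd108 and LOC100383364 and changed no other. Depth limits single libraries: the shallowest held 1323450 counts.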
